A study of Mus musculus with 8 samples.

Results

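MHC class I molecules show short peptides from inside a cell to CD8+ T cells and natural killer cells, and the 10 genes described here encode the chains of these molecules and the machinery that cuts, moves and loads the peptides. They were chosen by name: a probe set belonged to the group when the single gene symbol that the platform annotation gives it was B2m, H2-K1, H2-D1, Tap1, Tap2, Tapbp, Erap1, Psmb8, Psmb9 or Psmb10. This gave 28 probe sets of the 45101 on the array. Of these, 20 passed the filter on dim signals (a signal above 33.8 units, the median of the whole table and here the dim limit, on at least 4 of 8 arrays), and all 10 genes had at least 1 of them, among 9941 genes tested in all.

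The series was made to find what thymocytes that have not yet undergone positive selection transcribe differently when c-Myb, a DNA-binding regulator of blood progenitors, is missing. RNA of double-positive thymocytes, the stage that carries CD4 and CD8 together, was hybridised to 8 single-colour Affymetrix Mouse 430 2.0 arrays, 1 mouse per array, with 4 mice labelled c-Myb deficient and 4 labelled c-Myb sufficient. All mice were 4 to 5 weeks old and Tcra-/-, so that no thymocyte had an αβ T-cell receptor, and cells were retained on magnetic columns by anti-CD4. Cre was expressed under Cd4 control in both groups. The titles and the genotype field assign the groups used here. The source names run the other way, with Mybf/w Cd4-Cre Tcra-/- given for the mice labelled deficient and Mybf/f Cd4-Cre Tcra-/- for those labelled sufficient. The groups are therefore called by their labels (deficient-labelled and sufficient-labelled), and every direction given here rests on those labels.

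Class I heavy chains, such as those of H2-K1 and H2-D1, fold with the light chain encoded by B2m in the endoplasmic reticulum. Proteasomes cut cytosolic proteins into peptides, and Psmb8, Psmb9 and Psmb10 are the catalytic subunits that replace their constitutive counterparts in the immunoproteasome. Tap1 and Tap2 pair to form the transporter that carries peptides into the endoplasmic reticulum, Erap1 trims them there, and Tapbp (tapasin) bridges the transporter and empty class I molecules. Interferons, NF-κB and the transactivator Nlrc5 are known to raise transcription of this set, and double-positive thymocytes are known for low surface class I compared with mature T cells.

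Array medians lay between 30 and 37.9 signal units, and log2 signals correlated across probe sets at 0.974 to 0.984 within a group and 0.963 to 0.979 between groups. Myb itself did not read lower in the group labelled deficient: its brightest probe set averaged 11291 ± 543 there and 9362 ± 1151 on arrays labelled sufficient (SD, n = 4 each), with a two-sided exact permutation p of 0.0286, the smallest that the 70 labellings allow, but it was not called by limma (log2 difference 0.28, adjusted p 0.0619). Of its other probe sets, 1422734_a_at averaged 5777 ± 428 units on deficient-labelled against 4518 ± 460 on sufficient-labelled arrays (exact permutation p 0.0286, adjusted p 0.0327 over probe sets). The remaining Myb probe set, 1450194_a_at, averaged 7480 ± 323 units on deficient-labelled against 7293 ± 846 on sufficient-labelled arrays (exact permutation p 0.714), and these overlapped. Whether these probes fall inside the floxed stretch is not said in the sources used here, so Myb does not settle the labels. Xist, the transcript of the inactive X chromosome, read 4129 to 5736 on all 4 arrays labelled deficient, and 4358.5 on sufficient replicate 1 but 23.4 to 36.7 on the other 3 arrays labelled sufficient. Deficient replicate 4 had 7142.7 units on the 5′ control probe set of 18S ribosomal RNA, against 676.1 to 1459.4 on the other 7 arrays. No scan date or batch was at hand, and none was tested.

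Class I light chain and H2-K1 transcripts were more abundant on the arrays labelled deficient, and Tap2 transcripts less abundant. B2m rose 1.51-fold, H2-K1 rose 1.59-fold and Tap2 fell to 0.615 of its level on the arrays labelled sufficient (ratios of mean signals, n = 4 each). The other 7 genes did not pass the test. A gene was called where limma's adjusted p, by the Benjamini-Hochberg method over all 9941 genes, was under 0.05. By this rule 3 of the 10 members were called, 2 higher and 1 lower, where 9.98% of all genes tested were called, 5.89% higher and 4.08% lower. The same 3 members were those whose arrays did not overlap between groups, a pattern seen for 17.0% of all genes tested. The median log2 difference of the 10 members was 0.14, against 0.02 over all genes. Of the 10 members 8 lay above 0, Tapbp only just (0.00163), as did 5310 of all 9941 genes tested. Log2 differences are those of signal + 16, labelled deficient minus labelled sufficient, so they understate changes of dim probe sets. Scaling of each array to a common level removes any difference in total RNA, and in such bulk samples fewer cells that express a gene and less RNA per cell cannot be told apart.

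**Figure D1:**
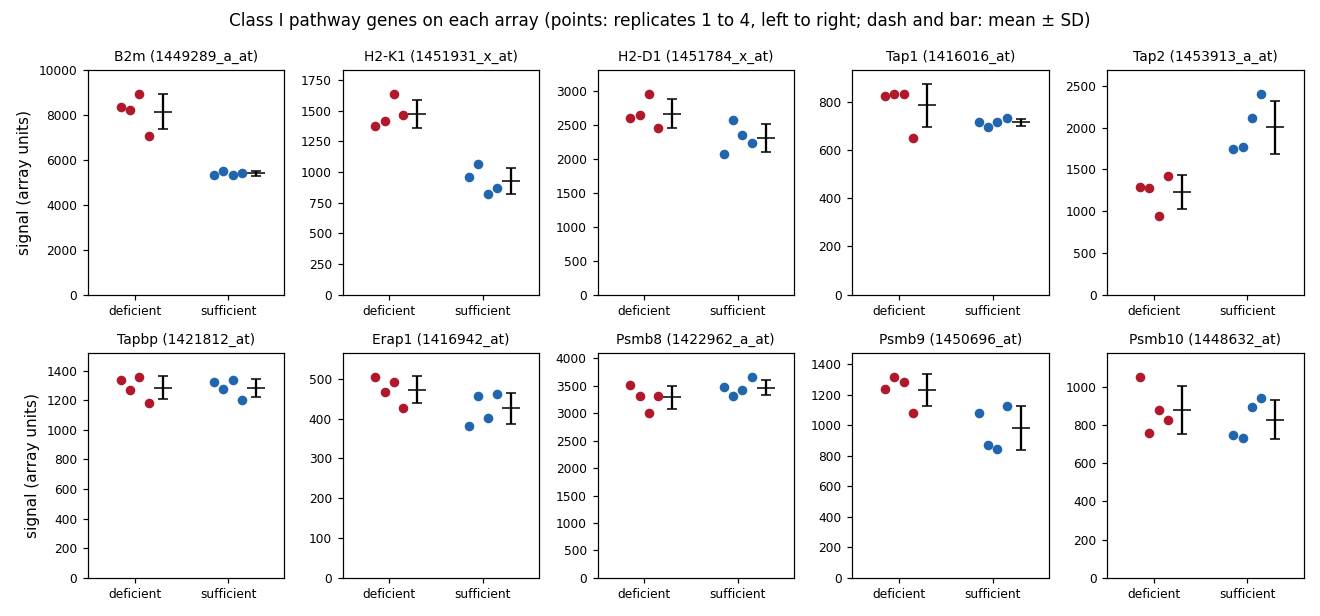
Signal in array units (vertical axes, starting at 0) of the representative probe set of each of the 10 genes on the 4 arrays labelled deficient (left, red) and the 4 labelled sufficient (right, blue), with the mean and SD as dash and bar. The groups are apart for B2m, H2-K1 and Tap2 and overlap for the other 7 genes.

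B2m, the light chain shared by all classical class I molecules, gave the smallest adjusted p of the 10 genes. Its brighter probe set, 1449289_a_at, read 8382.5, 8226.2, 8958.1 and 7068.6 units on replicates 1 to 4 labelled deficient, against 5331.1, 5526.5, 5329.1 and 5423.4 on those labelled sufficient. The lowest of the first group, deficient replicate 4, lay above the highest of the second, and the arrays labelled sufficient stayed within a narrow band. The means were 8159 ± 792 units on deficient-labelled and 5403 ± 93.6 on sufficient-labelled arrays (SD, n = 4 each), a log2 difference of 0.59 ± 0.073 (SE; 95% interval 0.43 to 0.75) with a limma adjusted p of 0.000912. A further B2m probe set, 1452428_a_at, read 6864.7, 6883.1, 7558.8 and 5386.5 units on deficient-labelled against 4539.1, 4704.6, 4391.8 and 4348.0 on sufficient-labelled arrays. Its groups did not overlap either, and its log2 difference of 0.56 had an adjusted p of 0.00736 over the 22599 probe sets that passed the filter. For further probe sets the text gives the log2 difference and this adjusted p in parentheses.

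H2-K1 encodes the heavy chain of the K molecule. Its representative probe set, 1451931_x_at, read 1374.9, 1414.5, 1639.5 and 1462.2 units on arrays labelled deficient, against 959.0, 1064.8, 822.0 and 870.8 on those labelled sufficient. All 4 of the first group were higher than all 4 of the second. The means of 1473 ± 117 units on deficient-labelled and 929 ± 107 on sufficient-labelled arrays (SD, n = 4 each) gave a log2 difference of 0.66 ± 0.10 (SE; 95% interval 0.44 to 0.88) and a limma adjusted p of 0.00248. Probe set 1425336_x_at read 1351.3, 1259.5, 1644.0 and 1117.2 units on deficient-labelled against 803.0, 993.6, 733.2 and 998.7 on sufficient-labelled arrays. These groups were also apart, at a log2 difference of 0.60 with an adjusted p of 0.0327 over probe sets. The dimmer 1427746_x_at, with 155.6 to 267.9 units on deficient-labelled against 113.3 to 174.8 on sufficient-labelled arrays, overlapped and was not called (0.53, adjusted p 0.147), and a remaining H2-K1 probe set was dim on all arrays.

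H2-D1, the heavy chain of the D molecule, had probe sets on either side of the threshold. Its brightest by mean log2 signal, 1451784_x_at, stands for the gene and read 2603.6, 2649.6, 2961.6 and 2451.0 units on arrays labelled deficient, against 2076.5, 2568.1, 2358.0 and 2239.7 on those labelled sufficient. Deficient replicate 4 lay below sufficient replicate 2, and the groups overlapped. Its log2 difference was 0.21 ± 0.088 (SE; 95% interval 0.01 to 0.40), with a limma adjusted p of 0.169. Probe set 1425545_x_at read 2839.0, 2624.0, 2926.3 and 2390.8 units on deficient-labelled against 1945.3, 2155.7, 2077.0 and 2159.0 on sufficient-labelled arrays. Here the groups were apart, and the log2 difference of 0.37 was called with an adjusted p of 0.0276 over probe sets. 1451683_x_at was also apart, with 353.7 to 459.7 units on deficient-labelled against 261.0 to 329.6 on sufficient-labelled arrays, but was not called (0.40, adjusted p 0.0882). 1426324_at, the only H2-D1 probe set past the filter without the cross-hybridisation suffix, overlapped with 258.0 to 377.5 units on deficient-labelled against 213.1 to 300.8 on sufficient-labelled arrays (0.30, adjusted p 0.332). The other 5 H2-D1 probe sets did not pass the filter, and 4 of them were dim on all arrays.

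Heavy chain genes are near-identical over long stretches, and the suffix _x_at marks probe sets that can bind related transcripts. H2-K1 had no probe set past the filter without it, so values of the H2-K1 and H2-D1 probe sets may include each other's transcripts or those of related class I genes. Of the 13 H2-K1 and H2-D1 probe sets, 7 passed the filter, and all 7 log2 differences were positive, from 0.21 to 0.66. The calls of 1425336_x_at and 1425545_x_at were made in 8 of 17 alternative fits each, and in 3 of 8 with an array left out. Probe set 1424948_x_at, which the annotation gives to H2-K1 and H2-D1 together and which is therefore not counted here, read 118.2, 148.8, 147.4 and 114.7 units on deficient-labelled against 84.5, 105.5, 96.6 and 92.4 on sufficient-labelled arrays. Its groups did not overlap, and it was not called (0.42, adjusted p 0.123 over probe sets).

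**Figure D2:**
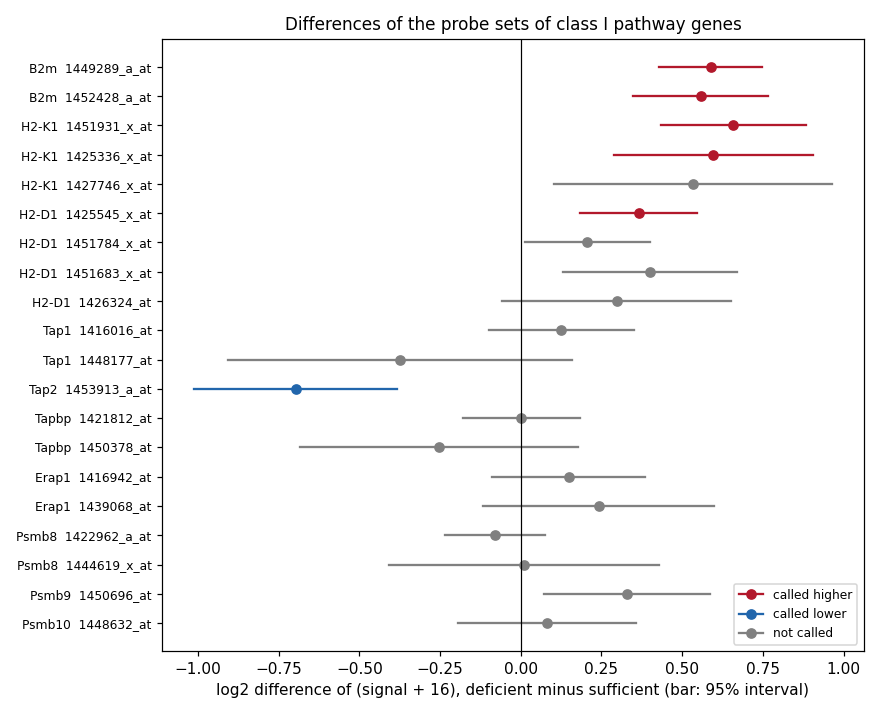
Log2 difference of signal + 16 (horizontal axis), labelled deficient minus labelled sufficient, of the 20 probe sets that passed the filter, with 95% intervals from the fit over all probe sets. The B2m, H2-K1 and H2-D1 probe sets lie right of 0, Tap2 lies left of it, and those called are coloured.

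Over probe sets, 6 of these 20 were called, 5 higher and 1 lower, where 5.82% of the 22599 tested were called. In 7 of the 20 the groups did not overlap, against 14.3% of all probe sets tested.

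The promoters of the 3 class I chain genes are shown because the literature places their shared control elements there, and the region between Psmb9 and Tap1 because these neighbours are transcribed away from each other from a common stretch. Each sequence runs 5′ to 3′ on the gene's own strand (for the shared region, the strand of Tap1) and is taken from RefSeq on GRCm38.p6. The windows end at the base before the start site and lie at chr2:122147437-122147686 (plus strand) for B2m, chr17:34000348-34000597 (minus strand) for H2-K1, chr17:35262844-35263093 (plus strand) for H2-D1 and chr17:34187331-34187555 for Psmb9 and Tap1. The H2-K1 window lies upstream of the more upstream of 2 start sites in the promoter table, within a gene that RefSeq extends to position 34000619. Capitals mark letters that match an interferon-stimulated response element (GAANNGAAA or GAAANNGAAA), a κB site (GGGANNNNCC), the X2 box of the class I enhanceosome (TGACG) or its Y box (ATTGG), each on either strand.
B2m: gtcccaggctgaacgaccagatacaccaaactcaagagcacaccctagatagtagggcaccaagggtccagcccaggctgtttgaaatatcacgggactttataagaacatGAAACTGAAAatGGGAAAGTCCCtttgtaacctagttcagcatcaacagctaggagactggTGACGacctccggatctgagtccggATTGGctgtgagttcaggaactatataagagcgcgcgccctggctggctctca
H2-K1: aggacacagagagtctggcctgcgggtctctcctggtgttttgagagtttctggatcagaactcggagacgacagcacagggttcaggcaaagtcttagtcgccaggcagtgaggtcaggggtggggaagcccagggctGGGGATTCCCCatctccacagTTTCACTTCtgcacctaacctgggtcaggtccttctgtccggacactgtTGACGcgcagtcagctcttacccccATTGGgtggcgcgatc
H2-D1: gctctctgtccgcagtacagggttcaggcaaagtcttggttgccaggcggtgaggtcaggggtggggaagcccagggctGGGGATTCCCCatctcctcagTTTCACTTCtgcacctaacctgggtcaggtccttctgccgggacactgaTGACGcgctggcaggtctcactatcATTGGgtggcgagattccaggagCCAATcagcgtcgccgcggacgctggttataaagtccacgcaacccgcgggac
Psmb9 to Tap1: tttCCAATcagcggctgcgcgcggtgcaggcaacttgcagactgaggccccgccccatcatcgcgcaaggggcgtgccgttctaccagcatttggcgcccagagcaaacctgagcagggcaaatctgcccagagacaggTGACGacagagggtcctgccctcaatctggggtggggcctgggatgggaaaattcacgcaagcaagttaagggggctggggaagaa

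B2m, H2-K1 and H2-D1 each held all 4 kinds of match in these 250 bases. In B2m the response element letters GAAACTGAAA began 139 bases before the start site, and the κB letters followed them. In the heavy chain genes the order was turned, with the κB letters upstream of TTTCACTTC, the response element read on the opposite strand. The aligned promoters of H2-K1 and H2-D1 shared 167 of 190 bases (87.9%). Among 9 members with a window in the table, the response element was found in these 3 alone, the κB letters in the same 3, the X2 letters in these and in Tap1 and Psmb9, and the Y box letters in those 5 and Tapbp. Of 32851 RefSeq windows of the same length, 8.82% held the response element, 17.6% the κB letters, 17.8% the X2 letters and 33.8% the Y box letters. The short X2 and Y letters are thus common, and the κB letters match on both strands at overlapping positions. The Tap1 and Psmb9 windows overlap, and their X2 and Y letters are the same sites, counted for both genes. A gamma-activated site (TTCNNNGAA, 7.02% of windows) was found in Psmb8, and Myb recognition letters (23.7% of windows) were found in Tapbp and Erap1. The Erap1 window (chr13:74639603-74639852, plus strand) lies within the gene, which RefSeq starts at position 74639573. The Myb letters were searched as CAACGG in a first form, as TAACGG in another form, as CAACTG in a further form and finally in the form TAACTG. These letter patterns were chosen after the promoters had been read, and a match does not show that a factor bound.

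Among the peptide transport and loading genes, Tap2 alone was called. Tap2, measured by a single probe set, 1453913_a_at, read 1292.3, 1280.5, 942.4 and 1414.4 units on arrays labelled deficient, against 1739.0, 1764.5, 2111.9 and 2404.8 on those labelled sufficient. The highest of the first group lay below the lowest of the second. Means of 1232 ± 203 units on deficient-labelled and 2005 ± 316 on sufficient-labelled arrays (SD, n = 4 each) gave a log2 difference of -0.70 ± 0.14 (SE; 95% interval -1.01 to -0.39), and Tap2 fell with a limma adjusted p of 0.0107. No further probe set of Tap2 with a single symbol was on the array, so this call has no check from another set of probes.

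Tap1, the partner of Tap2 in the transporter, read 823.8, 833.2, 834.0 and 651.0 units on arrays labelled deficient, against 715.8, 696.5, 715.5 and 731.8 on those labelled sufficient, at its probe set 1416016_at. Replicates 1 to 3 labelled deficient were higher than all 4 arrays labelled sufficient, and deficient replicate 4 was lower than all of them. The log2 difference was 0.13 ± 0.098 (SE; 95% interval -0.09 to 0.34), with a limma adjusted p of 0.480. The intervals of Tap1 and Tap2 did not overlap, but the difference between these genes was not tested. A second Tap1 probe set, 1448177_at, lay near the dim limit with means of 34.2 units on deficient-labelled and 49 on sufficient-labelled arrays, and was not called (-0.37, adjusted p 0.425 over probe sets), and the remaining Tap1 probe sets were dim on all arrays.

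Tapasin transcripts were close between the groups. Tapbp read 1338.2, 1268.8, 1356.5 and 1178.8 units on arrays labelled deficient, against 1321.0, 1276.8, 1337.7 and 1197.9 on those labelled sufficient, at 1421812_at. These ranges overlap almost fully, and the 95% interval of the log2 difference ran from -0.18 to 0.18 (limma adjusted p 0.993). A dimmer Tapbp probe set, 1450378_at, had 129.5 to 243.4 units on deficient-labelled against 185.6 to 261.3 on sufficient-labelled arrays and was not called (-0.25, adjusted p 0.516 over probe sets). Erap1, the trimming aminopeptidase, read 504.7, 467.3, 492.6 and 427.2 units on deficient-labelled against 382.6, 457.3, 402.1 and 460.9 on sufficient-labelled arrays, at 1416942_at. Its groups overlapped, with a log2 difference of 0.15 ± 0.10 (SE; 95% interval -0.07 to 0.37) and a limma adjusted p of 0.408. The second Erap1 probe set, 1439068_at, had 98.4 to 167.9 units on deficient-labelled against 109.9 to 118.4 on sufficient-labelled arrays and was not called either (0.24, adjusted p 0.445 over probe sets).

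None of the 3 immunoproteasome subunits was called, and 1, Psmb9, had an unadjusted limma p under 0.05, as did 25.1% of all genes tested. Psmb9 came nearest, with 1239.4, 1315.4, 1280.1 and 1078.5 units on arrays labelled deficient, against 1081.3, 870.4, 844.3 and 1124.6 on those labelled sufficient, at 1450696_at. Deficient replicate 4 lay below sufficient replicates 1 and 4, while the other 3 arrays labelled deficient lay above all 4. The log2 difference was 0.33 ± 0.11 (SE; 95% interval 0.08 to 0.58), with a limma adjusted p of 0.0965. Psmb8, the neighbour of Tap1 and Tap2 on chromosome 17, read 3523.8, 3318.3, 2999.3 and 3310.0 units on deficient-labelled against 3484.0, 3318.6, 3415.7 and 3661.1 on sufficient-labelled arrays, at 1422962_a_at. Its groups overlapped, and the 95% interval of its log2 difference ran from -0.23 to 0.08 (limma adjusted p 0.547). A dim Psmb8 probe set, 1444619_x_at, averaged 121 units on deficient-labelled and 119 on sufficient-labelled arrays (0.01, adjusted p 0.985 over probe sets). Psmb10 read 1050.6, 756.2, 877.1 and 826.3 units on deficient-labelled against 747.6, 730.9, 892.2 and 938.3 on sufficient-labelled arrays, at 1448632_at. Its arrays were intermixed, with a log2 difference of 0.08 ± 0.12 (SE; 95% interval -0.19 to 0.35) and a limma adjusted p of 0.735.

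Neighbours in the MHC did not share a call. On GRCm38.p6 of RefSeq, 7 members lie on chromosome 17 within the MHC: Tapbp (chr17:33919478-33929290), H2-K1 (chr17:33996012-34000619), Psmb9 (chr17:34182030-34187330), Tap1 (chr17:34187556-34197225), Psmb8 (chr17:34198195-34201454), Tap2 (chr17:34204479-34216321) and H2-D1 (chr17:35263094-35267497). Tap2, which fell, thus lies next to Psmb8 and near Tap1 and Psmb9, none of which was called. B2m (chr2:122147687-122153082), Erap1 (chr13:74639573-74693205) and Psmb10 (chr8:105935728-105938392) lie elsewhere.

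The 3 calls did not rest on a single array. With each array left out in turn, B2m, H2-K1 and Tap2 were called in all 8 fits, with log2 differences of 0.54 to 0.66, 0.60 to 0.73 and -0.77 to -0.58. With Xist level added as a class, high or low, none of the 3 passed: B2m had a log2 difference of 0.61 (adjusted p = 0.0834), H2-K1 0.61 (adjusted p = 0.198) and Tap2 -0.51 (adjusted p = 0.468), where 26 of all genes were called. Of the genes of other lists named here, Ccr7 alone passed in that fit (log2 difference 2.72, adjusted p 0.0447). In that fit the group difference rests on sufficient replicate 1, the single array labelled sufficient with high Xist. That array read 5331.1 units for B2m and 959.0 for H2-K1, below all arrays labelled deficient, and 1739.0 for Tap2, above all of them. Tap2 and H2-K1 on it lay nearer to the arrays labelled deficient than the mean of its group did. The part that the sex of the mice has in these differences was not tested otherwise.

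Regulators of class I transcription moved in both directions. Of 17 listed, 15 were tested, of which 2 were called higher and 2 lower (median log2 difference -0.11). Over all genes tested, 5.89% were called higher and 4.08% lower. Nlrc5, the transactivator of class I promoters, read 135.3, 192.1, 195.6 and 109.7 units on arrays labelled deficient, against 64.3, 52.5, 33.6 and 39.6 on those labelled sufficient. All 4 of the first group were higher, and sufficient replicate 3 lay below the dim limit. The means were 158 ± 42.5 units on deficient-labelled and 47.5 ± 13.7 on sufficient-labelled arrays (SD, n = 4 each), with a log2 difference of 1.45 ± 0.21 (SE) and a limma adjusted p of 0.00215. Irf1, an interferon-induced factor that binds response elements, averaged 713 ± 78.4 units on deficient-labelled against 520 ± 58.1 on sufficient-labelled arrays and rose with an adjusted p of 0.0322, but was called in 2 of the 8 fits that left out an array. Stat2, a partner in the factor that type I interferon activates, fell with 223 ± 30.4 units on deficient-labelled against 307 ± 33.2 on sufficient-labelled arrays (adjusted p 0.0484) and was called in 1 of those 8 fits. Nfkbia, the inhibitor of NF-κB, also fell, with 5930 ± 99.3 units on deficient-labelled against 7698 ± 606 on sufficient-labelled arrays (log2 difference -0.37, adjusted p 0.00554), a gene named after its values were seen. Without deficient replicate 4, 7 of the 15 were called, 3 of them higher, and 8 were with array weights. Without sufficient replicate 3 or 4, or deficient replicate 1, 2 or 3, 2 were called, 1 in each direction, and with Xist level 0 were.

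Of 14 folding and peptide trimming genes 13 were tested, and 3 (23.1%) were called, all higher (median log2 difference 0.23), where 9.98% of all genes were called and 5.89% were called higher. They were Ide, a cytosolic peptidase (984 ± 79.2 units on deficient-labelled against 725 ± 86.4 on sufficient-labelled arrays, adjusted p 0.0254), Tapbpl, a tapasin-like peptide editor (631 ± 47.5 units on deficient-labelled against 494 ± 41.2 on sufficient-labelled arrays, adjusted p 0.0448), and Blmh, a cytosolic aminopeptidase (2360 ± 90.5 units on deficient-labelled against 1882 ± 116 on sufficient-labelled arrays, adjusted p 0.0183). With each array left out in turn, Ide was called in 5 of 8 fits, Tapbpl in 2 and Blmh in 4. Of the 13, 0 were called without sufficient replicate 3, without deficient replicate 1, with Xist level or with the mean of a gene's probe sets, and 1 was without sufficient replicate 1 or deficient replicate 2 or 3. With the mean of probe sets Ide had a log2 difference of 0.16 (adjusted p 0.368), Tapbpl 0.31 (adjusted p 0.288) and Blmh 0.19 (adjusted p 0.185). The Blmh difference was 0.06 (adjusted p 0.773) where probe sets with the suffixes _x_at and _s_at were left out. Canx, Calr and Pdia3, chaperones of heavy chain folding, had log2 differences of 0.25, 0.08 and 0.10 and were not called. Of the constitutive proteasome counterparts and the PA28 activator, 6 of 9 were tested, and limma called 0 of them by adjusted p and 0 at an unadjusted p under 0.05 (median log2 difference 0.02). The brightest of them, Psmb7, which Psmb10 replaces, had a log2 difference of -0.05 (adjusted p 0.748).

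Among 18 other class I and class I-like chains 5 were tested, with 0 called higher and 1 lower, where 9.98% of all genes were called. The median log2 difference was -0.14. That median was near 0 without deficient replicate 4 (0.000866) and with array weights (-0.0202), and 0.04 over 9 genes with no dim filter. The call was H2-Q2, a Q-region class I gene with close relatives, with 803.3, 534.6, 603.9 and 878.7 units on arrays labelled deficient, against 941.0, 1155.2, 1652.7 and 1663.5 on those labelled sufficient. The groups did not overlap, and H2-Q2 fell by 0.91 ± 0.20 on the log2 scale (SE, limma adjusted p 0.0179), a direction opposite to that of B2m and H2-K1. It was called in 5 of the 8 fits that left out an array, and not without sufficient replicate 3 or deficient replicate 2 or 3. With Xist level added H2-Q2 had a log2 difference of -0.44 and was not called (adjusted p 0.660). Of the class II pathway, which loads peptides in antigen-presenting cells, 9 of 12 genes were tested, with 1 called higher, the protease Ctss (401 ± 71.9 units on deficient-labelled against 208 ± 102 on sufficient-labelled arrays, adjusted p 0.0459), and a median log2 difference of 0.37. The median was 0.03 without sufficient replicate 3 and 0.55 without sufficient replicate 4, and 3 of the 9 were called without deficient replicate 4 and with array weights. Ctss was called in 3 of the 8 fits that left out an array, and Ciita, the class II transactivator, was dim on all arrays.

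**Figure D3:**
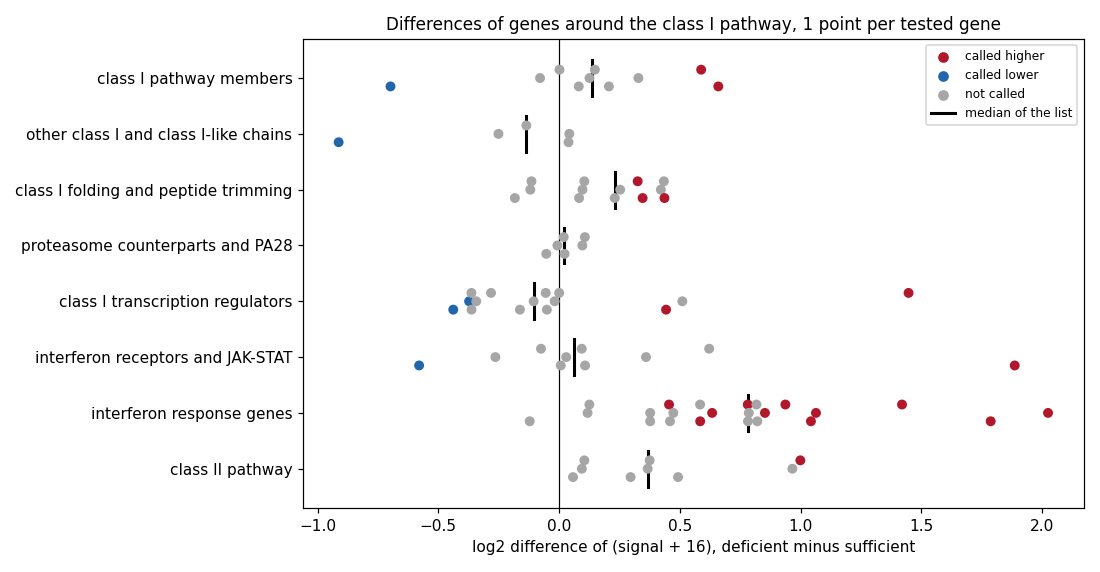
Log2 difference of signal + 16 (horizontal axis), labelled deficient minus labelled sufficient, with 1 point per tested gene and a bar at the median of each list. The 10 members have a median of 0.14 and spread from Tap2 at -0.70 to H2-K1 at 0.66, and the interferon response genes have a median of 0.78.

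Interferon response genes, the list around the pathway with the highest median, rose or did not pass the test. Of 33 listed, 23 were tested, at a median log2 difference of 0.78. Of these 11 were called, all of them higher, where 5.89% of all genes were called higher and 4.08% lower. At an unadjusted limma p under 0.05, 20 were higher and 0 lower, where 14.7% of all genes were higher and 10.3% lower. Usp18, which removes ISG15 from proteins, averaged 494 ± 130 on arrays labelled deficient against 109 ± 32.3 units on those labelled sufficient (adjusted p 0.000307). Rsad2, an antiviral enzyme, averaged 242 ± 163 units on deficient-labelled against 49.9 ± 20.3 on sufficient-labelled arrays (adjusted p 0.0227), and was called in 3 of the 8 fits that left out an array. Oas1a, which makes the activator of RNase L, did not reach the dim limit on any array labelled sufficient, and was at least 1.86-fold higher on those labelled deficient. It passed the filter only through the arrays labelled deficient, where it is high, so its adjusted p of 0.00823 carries the choice made by the filter. With the filter required on all 8 arrays Oas1a was not tested, and 8 of 19 genes of the list were called, all higher. With 1 array left out the number called ran from 5 to 16. It was 5 of 22 without deficient replicate 1 or 2, 6 without deficient replicate 3 or sufficient replicate 3, 7 without sufficient replicate 1 or 4, and 16 of 22 without deficient replicate 4. It was 0 with Xist level as a covariate and 18 with array weights. Of 10 receptor and JAK-STAT genes, 1 was called in each direction, with a median log2 difference of 0.06. Socs3, a feedback inhibitor of cytokine signalling, rose (2649 ± 367 units on deficient-labelled against 797 ± 443 on sufficient-labelled arrays, adjusted p 0.00568), and Ifngr1, a chain of the interferon gamma receptor, fell (1126 ± 83.7 units on deficient-labelled against 1698 ± 227 on sufficient-labelled arrays, adjusted p 0.00651). With Xist level added neither was called: Socs3 had a log2 difference of 1.07 (adjusted p 0.436) and Ifngr1 -0.81 (adjusted p 0.0708).

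**Figure D4:**
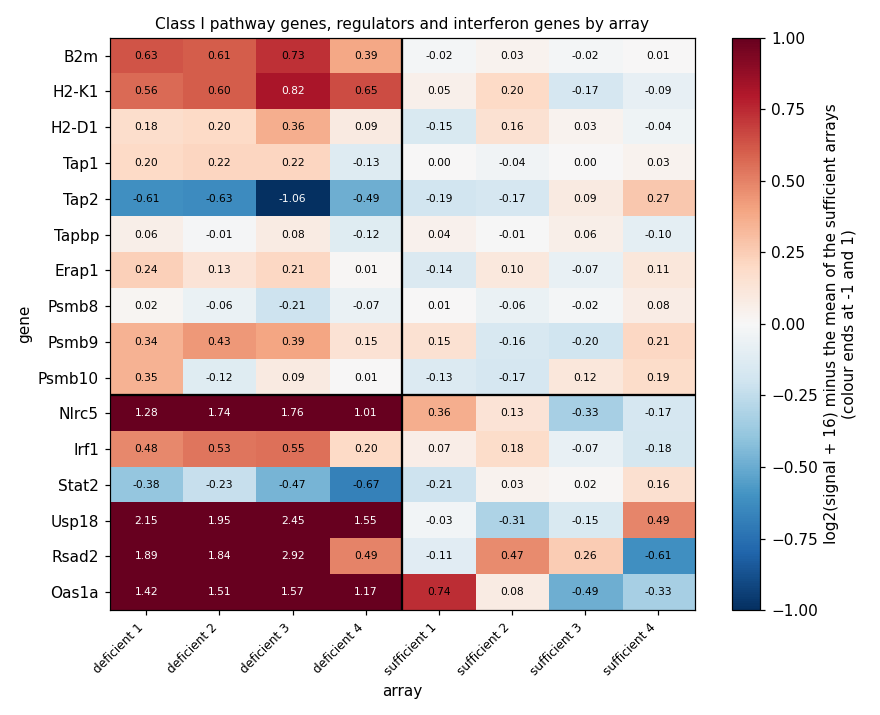
Log2(signal + 16) on each array minus the mean of the arrays labelled sufficient, for the 10 members (upper rows) and 6 regulators and interferon genes (lower rows), with the 4 arrays labelled deficient on the left. Colour ends at -1 and 1, and the number in each cell gives the value: B2m ranges from 0.39 to 0.73 and Nlrc5 from 1.01 to 1.76 on the arrays labelled deficient.

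Deficient replicate 4 stood apart within its group for the members. On it 8 of the 10 were below the mean of their group, where 46.8% of all tested genes were, against 2, 5 and 2 members on deficient replicates 1, 2 and 3. Its B2m, Tap1, Tapbp, Erap1, Psmb9 and H2-D1 signals were the lowest of the 4 arrays labelled deficient, and its Tap2 signal the highest. Without it the log2 differences of B2m, H2-K1 and Tap2 kept their calls. It was also the array with the high 18S control signal, whose part in these values was not tested.

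Some markers of cell stage differed between the groups. The double-positive markers Cd8a, Rag1 and Cd4 were not called and averaged 11073, 10824 and 3704 units on arrays labelled deficient, against 10714, 11396 and 3961 on those labelled sufficient. Both groups thus expressed these genes, but they were picked after their values were seen. They do not show that the groups were alike in stage. Of the 13 listed double-positive genes 12 were tested, with 0 called higher and 5 lower, among them Endou (log2 difference -0.98), Arpp21 (-0.77) and Cd1d1 (-0.54), and the signals of all measured genes of the list summed to 63000 to 69130 units on deficient-labelled against 72443 to 78370 on sufficient-labelled arrays. Of 14 markers of mature single-positive thymocytes 12 were tested, of which 7 were called higher and 2 lower (median log2 difference 0.76). The 2 called lower were Ms4a6b (log2 difference -0.87, adjusted p 0.0121) and Ifngr1 (-0.58, adjusted p 0.00651), which is also counted among the receptor genes. Over all genes tested, 5.89% were called higher and 4.08% lower. Ccr7, a chemokine receptor of mature thymocytes, had a log2 difference of 3.65, Itgb7, an integrin chain, 2.53, and Ccr4, a further chemokine receptor, 2.06. Ccr4 read 3.9 to 36.9 units on sufficient-labelled arrays, and Ccr7 lay below the dim limit on sufficient replicates 3 and 4 (31.4 and 18.1 units). Both passed the filter through the deficient-labelled arrays, where they are high, so their calls carry the choice made by the filter. With the filter required on all 8 arrays neither was tested, and 5 of 10 genes of the list were called higher and 2 lower. The summed signal was 9026 to 10757 units on deficient-labelled against 7350 to 8614 on sufficient-labelled arrays. The mature list is named after the cells it usually marks. All mice were Tcra-/-, without an αβ T-cell receptor, and whether mature cells were present was not tested. With Xist level added, 0 of the double-positive and 1 of the mature genes were called. The part of these marker differences in the B2m, H2-K1 and Tap2 differences was not tested.

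Markers of other cells that the column could retain were mostly not called, where 9.98% of all genes were. Of thymic epithelium and stroma, 5 of 10 markers were tested, 0 called by limma and 2 lower at an unadjusted p under 0.05, with summed signals of 709 to 984 units on deficient-labelled against 968 to 1079 on sufficient-labelled arrays, and Foxn1, Psmb11, Col1a1 and Col3a1 were dim on all arrays. The brightest tested, Pecam1, had a log2 difference of -0.36 (adjusted p 0.139). Of macrophages and dendritic cells, 7 of 14 were tested, 0 called and 0 at an unadjusted p under 0.05, with sums of 1692 to 2122 units on deficient-labelled against 1852 to 2321 on sufficient-labelled arrays, Cst3 at -0.23 (adjusted p 0.225), and Xcr1, Siglech and Flt3 dim on all arrays. Of B cells, 2 of 8 were tested, 0 called and 1, Ighm, higher at an unadjusted p under 0.05, with sums of 7662 to 8611 units on deficient-labelled against 7153 to 7376 on sufficient-labelled arrays, Ighm at 0.18 (adjusted p 0.0762), and Cd79a and Fcer2a dim on all arrays. Ighm was called with array weights (0.17, adjusted p 0.0486) and, through another probe set, where those with the suffixes _x_at and _s_at were left out (0.39, adjusted p 0.0458). Class II pathway signals summed to 2705 to 3250 units on deficient-labelled against 1309 to 3014 on sufficient-labelled arrays. Of natural killer, NKT and γδ T cells, 3 of 12 were tested and 1 was called, Gzma (log2 difference 0.75, adjusted p 0.00183), with sums of 3210 to 4401 units on deficient-labelled against 2064 to 2640 on sufficient-labelled arrays, and Ncr1 and Zbtb16 dim on all arrays. Most of the sum came from 1 gene in the stroma (Pecam1), B cell (Ighm), macrophage and dendritic cell (Cst3) and natural killer (Gzma) lists. Pecam1 averaged 527 units on deficient-labelled and 670 on sufficient-labelled arrays. Ighm alone read 7106 to 8078 units on deficient-labelled and 6579 to 6881 on sufficient-labelled arrays. These sums therefore do not measure how many such cells were present. The part of these cells in the member differences was not tested.

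Members varied unevenly from mouse to mouse. With each group's mean subtracted, B2m and Tap1 followed each other over the 8 arrays (Pearson r 0.896), while Tap2 ran against B2m (-0.618) and H2-K1 (-0.774). These are descriptions over 8 arrays that share their scaling, in which deficient replicate 4 had the lowest deviations of B2m and Tap1. The genes whose deviations were most like the mean of the 10 members were Med24 (r 0.986), Ccdc66 (0.971), Nicn1 (0.948), Zdhhc6 (0.935) and Tanc1 (0.933), picked as the highest of 9941 over 8 arrays. Of these only Tanc1 was called between the groups (log2 difference 0.78, adjusted p 0.00109).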

How the data were processed

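Groups follow the titles and genotype field per the labels, which call the arrays biological replicates. For each array the deposited table gives every probe set a linear intensity, the signal that GCOS made per the submitters' processing notes (version and settings: not given in the sources used). The 2% trimmed mean of the deposited intensities was 250.0 on each array, so arrays had been scaled to a common level. Depth does not apply, and the number of arrays limits the precision.

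Signals were converted to log2(signal + 16). Of 45101 probe sets, 64 controls were left out, 34945 had 1 symbol in the platform annotation, 932 had several and 9160 had none. RefSeq on GRCm38.p6 held 34741 of the 1-symbol probe sets. Probe sets above the table's median of 33.8, the dim limit, on at least 4 of 8 arrays were kept, and a gene was represented by its brightest 1-symbol probe set (by mean log2). The test was limma's (version 3.58.1, R 4.3.3): lmFit and a trended eBayes, two-sided, called at a Benjamini-Hochberg adjusted p of 0.05 over 9941 genes or, where stated, over 22599 probe sets. An exact permutation test served for Myb. Every adjusted p in the text comes from limma. The procedure was tested on simulated data. A gene dim on every array of a group has its fold as a lower bound, the bright group's geometric mean over the dim limit.

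Promoter windows came from RefSeq, where 9 of the 10 members matched, Tap2 excepted. Tables, alignment and plots used Python 3.11.15, pandas 2.3.3, Biopython 1.88 and matplotlib 3.10.9. Alternatives were quantile normalization, other pseudocounts, filters, variance models and thresholds, another choice of probe sets, array weights, the replicate number or Xist level as a term, and leaving out each array. The Xist class was divided at 1000 units. Members and gene lists were chosen with earlier results of these data known. The text names all members, Myb, Xist and up to 3 called genes per list with the largest difference (the brightest where none was called). It also names the 5 genes most like the members. Others are said to be chosen after their values were seen, as were Canx, Calr, Pdia3, Cd8a, Rag1, Cd4, Ms4a6b and the dim markers.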

Additional observations from a re-analysis of the deposited data

Results flagged for a closer look

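Over 40 groups of 4 arrays, the 20 member probe sets in each group, a single array lay far from the other 3 in 2 cases, and chance gives about 1 in 20. Tap1 (1416016_at) read 651 units on deficient replicate 4, where the nearest array of its group read 823.8 and the farthest 834. Tapbp (1450378_at) read 185.6 units on sufficient replicate 2, where the nearest read 249.3 and the farthest 261.3.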

How the results depend on the processing

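Of 9941 genes 992 were called, against 1745 with array weights, 371 at a threshold of 0.01, 26 with Xist level as a covariate and 494 to 1195 with 1 array left out, the lowest without sufficient replicate 3. Without deficient replicates 1, 2 and 3 the count was 605, 515 and 578. Members called numbered 3 in each fit without an array, 0 with Xist level and 2 at a threshold of 0.01, where Tap2 was not called. B2m and Tap2 were called in 18 of 19 fits and H2-K1 in 17 of 18, Xist level being the exception. H2-K1 could not be tested without _x_at and _s_at probe sets. H2-D1 was called only with the mean of a gene's probe sets (log2 difference 0.32, adjusted p 0.0422), and Psmb9 only with array weights (0.38, adjusted p 0.027). The sign turned for Tap1 (-0.12) and Tapbp (-0.13) with the mean of a gene's probe sets, and for Tapbp with Xist level (-0.0409). With 1 array left out, Tapbp ran from -0.0307 to 0.0421 and Psmb10 from -0.00709 to 0.148. The second H2-K1 and H2-D1 probe sets, 1425336_x_at and 1425545_x_at, were called in 8 of 17 fits each. Of probe sets 1316 were called, against 917 with no filter and 1479 with quantile normalization. Deviations of same-numbered replicates correlated at r 0.00367, 0.172, -0.274 and 0.361, which does not settle whether the numbers pair the mice. No label states a pairing. With the replicate number as a block 1035 genes, 3 members and 1081 probe sets were called. With Xist level, 0 interferon response genes, 0 regulators, 0 folding genes, 0 double-positive and 1 mature marker genes were called. The alternatives on single lists were added after seeing the data. The cause of these changes was not tested. Signals near the dim limit, such as Nlrc5 and Oas1a on arrays labelled sufficient, are the least precise.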
